A study of Rattus norvegicus with 9 samples.

Results

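The late-numbered miRNAs of the rat hippocampus are described here, that is, the mature miRNAs whose number is 3000 or higher, without miR-3552. The rule uses the name of a miRNA and no measured value. Of the 633 mature rat miRNAs listed, 70 met the rule, under 57 different numbers that ran from 3064 to 7578. In steps of 1000, 50 of the 70 fall in the step from 3000, 2 in that from 5000, 17 in that from 6000 and 1 in that from 7000. One of the 70 stands for 3 names with the same mature sequence, miR-3084a-3p/miR-3084b-3p/miR-3084d. The species prefix is left off all names.

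Small RNA libraries had been made from the hippocampus of Sprague-Dawley rats, 3 per group. Treatment began at 5 weeks of age per the growth protocol, whereas the age tag of every library reads postnatal day 21. VEH rats were injected with saline for 14 and then 7 days. MK-801 rats were injected intraperitoneally with MK-801 (dizocilpine), which blocks NMDA receptors for glutamate, at 0.2 mg/kg once daily over 14 days, then with saline for 7 days. MK-801+CLO rats had the same MK-801 course and then 10 mg/kg for 7 days of what the group's name gives as CLO, clozapine, an atypical antipsychotic. No group received CLO alone, and every CLO-treated rat had also received MK-801. The labels name 10 rats per group, but not how many rats went into a library, so the spread behind each p-value is that between libraries and may be technical.

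A mature miRNA is cut from a hairpin precursor, in which the 5p arm and the 3p arm are paired, and it is loaded into an Argonaute protein. The seed, the bases near its 5′ end, pairs with target mRNAs and lowers their translation or stability. miRNAs are numbered roughly in the order in which they were found, so late numbers mostly belong to miRNAs found by deep sequencing after the abundant and widely conserved ones had been named. Some of them lie on the strand opposite an earlier miRNA, since the antisense transcript of a hairpin can fold as well.

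The sequences that the levels and comparisons turn on are shown first, as deposited, 5′ to 3′, with the seed (bases 2 to 8) in capitals. The first 4 are the most abundant, and together hold 90.9% of the summed mean level of all 70. The next is miR-6324, the first of the members by p in both comparisons with VEH. The following 5 had an unadjusted p under 0.05 in edgeR in at least 1 comparison. So had miR-6331, and miR-3577 and miR-3589, which are left out of this list. The last sequence is that of a member counted in 1 library.
miR-3557-5p: gCCTTCTGactccaagtccagt
miR-3586-3p: aTACTAGActgtgagctcctcga
miR-3068-3p: gGTGAATTgcagtactccaaca
miR-6331: cTTTGGTGgcttagttctttgtgc
miR-6324: tCAGTAGGccagacagcaagcac
miR-3072: tGCCCCCTccaggaagccttctt
miR-3099: tAGGCTAGaaagaggttgggga
miR-6329: aATGTGACtcagctatctgaaca
miR-3594-3p: cACACCGCctctgcccgctagt
miR-3084a-3p/miR-3084b-3p/miR-3084d: tTCTGCCAgtccccttcagaca
miR-6321: tACTGCAGtgagttctatgaagc

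Several of the most abundant members are reverse complements of earlier miRNAs. To show this, the next lines give the member read backwards on the other strand, with the bases that match the earlier miRNA in capitals.
miR-3557-5p, reverse complement, against miR-378a-3p: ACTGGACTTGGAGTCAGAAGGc
miR-3586-3p, reverse complement, against miR-151-5p: TCGAGGAGCTCACAGTCTAGTat
miR-3589, reverse complement, against miR-505-3p: GTCAACACTTGCTGGTTTCCtc
miR-3553, reverse complement, against miR-183-5p: TATGGCACTGGTAGAATTCACTg
miR-3543, reverse complement, against miR-434-3p: TTTGAACCATCACTCGACTCCTg
miR-3065-3p, reverse complement, against miR-338-5p: tccccAACAATATCCTGGTGCTGA
In the first 5 lines the capitals hold the whole mature sequence of the earlier miRNA, which is 20 to 22 bases long. miR-3065-3p shares 19 bases in a row with miR-338-5p, and all 24 of its bases with the antisense strand of the Mir338 hairpin in RefSeq.

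Library totals ran from 10665718 to 18284905 counts, lowest in MK-801+CLO 2. Levels are counts per 1000000 counts of the library (CPM), as the mean and SD of a group's 3 libraries or the mean over all 9. Where a library has 0 counts, its level can be up to 0.164 to 0.281 CPM depending on its total, the worth of 3 counts, for counting error alone. The brain miRNAs miR-9a-5p and miR-124-3p averaged 84597 and 3317 CPM, and the liver miRNA miR-122-5p averaged 0.358 CPM. In VEH 3 the choroid plexus miRNA miR-204-5p was at 8583 CPM, above its 9-library mean of 3248 CPM. The other choroid plexus miRNA looked at, miR-211-5p, was at 10.4 CPM there, below its 9-library mean of 13.1 CPM.

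Most late-numbered miRNAs were detected in every library, but a smaller share of them than of the other miRNAs. Counts were present in all 9 libraries for 42 of the 70 (60%), against 457 of the other 563 miRNAs (81.2%). A further 27 had counts in 1 to 8 libraries, 14 of them in 1 or 2 libraries. The only one at 0 throughout was miR-3573-5p, and its other arm, miR-3573-3p, had 3 counts, 1 in VEH 2 and 2 in MK-801 2.

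A single library held all counts of 9 members. miR-6321 had 360 counts in MK-801+CLO 2 and miR-3065-5p had 3 in MK-801 3. miR-6330 had 2 counts in VEH 3. The other 6 (miR-3558-3p, miR-6316, miR-3568, miR-6215, miR-3566 and miR-3064-5p) had 1 count each. Apart from miR-6321, these were at or under the level that a count of 0 allows, so their presence or absence in a group was not detectable at this depth.

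By group, 46 members were counted in every VEH library, 50 in every MK-801 library and 45 in every MK-801+CLO library. Counted per library, 53.3 ± 0.577 were present in VEH, 55 ± 1.73 in MK-801 and 51.3 ± 2.52 in MK-801+CLO (SD, n = 3). The lowest number was 49, in MK-801+CLO 1, and the highest was 56, in MK-801 2 and MK-801 3. Thinned to the smallest library total, the expected numbers were 51.4 ± 1.81, 52.5 ± 1.43 and 50.6 ± 3.09, and the groups overlapped.

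A further 3 rare members had counts in every library of some group and none in another. miR-3593-3p had 4, 2 and 3 counts in VEH, 2, 2 and 1 in MK-801 and 0 in all MK-801+CLO libraries. miR-3084c-5p had 1, 2 and 1 counts in MK-801 and 0 in the other 6 libraries. miR-3562 had 2, 3 and 1 counts in VEH, 1, 2 and 0 in MK-801 and 0 in MK-801+CLO. These 3 were chosen after their values were seen, and how many of the other listed miRNAs show such a pattern was not counted. They had 14, 4 and 9 counts in all, and none of them passed the filter on low counts used for the comparisons.

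Levels were low for most members and high for a few. The median over the 70 of the mean level was 0.497 CPM, against 16.4 CPM over the other 563 miRNAs. The medians fell with the number in the rest of the list, from 21.3 CPM below 400 to 10.6 CPM from 400 up to 1000 and 5.55 CPM from 1000 up to 3000. A mean under 1 CPM was found for 44 members (62.9%) and for 25.6% of the others. A mean of 10 CPM or more was found for 14 members (20%) and for 56.7% of the others. Of the low members, 21 lay under 0.1 CPM and 23 between 0.1 and 1 CPM.

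The listed miRNAs next below 3000 were miR-2985 at 1.52 CPM, miR-1956-5p at 0.0742 CPM and miR-1949 at 0.223 CPM. miR-3552, which the rule leaves out, averaged 9.39 CPM and ran from 3.47 to 23.6 CPM over the libraries.

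**Figure D1:**
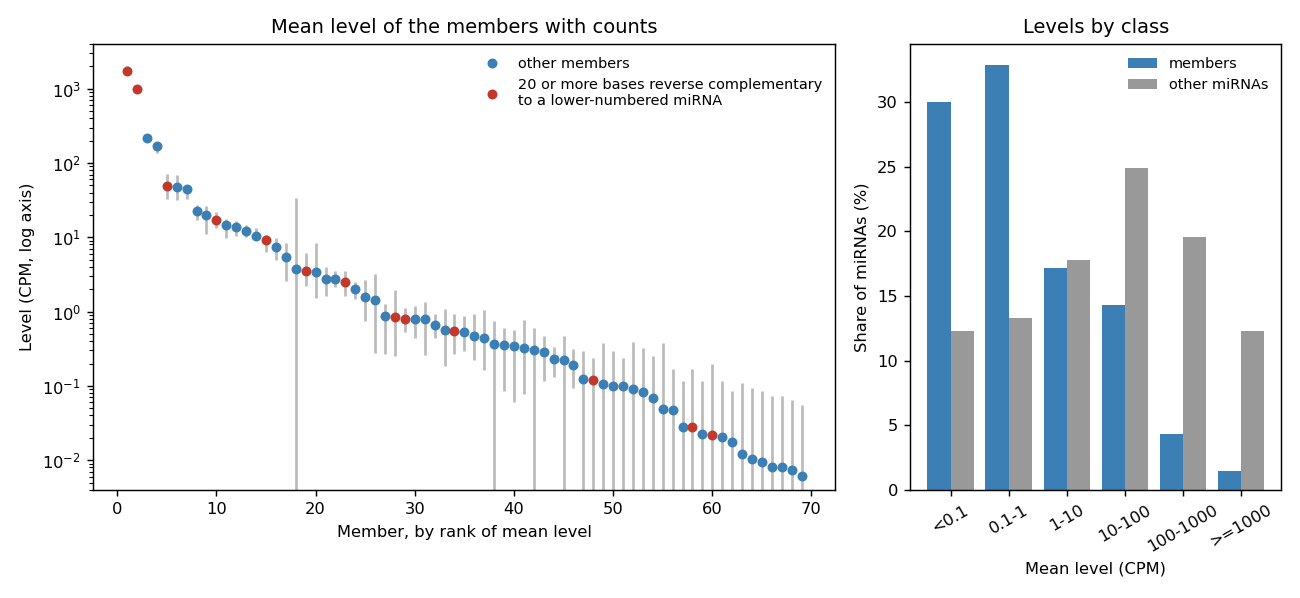
Left, the mean level over 9 libraries (points, CPM on a log axis) and the lowest and highest library (grey lines, cut at the axis foot where a library was at 0) of the 69 members with counts, by rank. Red points share at least 20 bases in a row, as reverse complement, with a lower-numbered miRNA or its hairpin. Right, the share of members and of the other miRNAs in each class of mean level, where 44 of 70 members lie under 1 CPM.

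The members with a mean of 10 CPM or more were led by miR-3557-5p at 1727 CPM and miR-3586-3p at 983 CPM. Next were miR-3068-3p at 218 CPM and miR-6331 at 168 CPM. miR-3065-3p (48.4 CPM), miR-3099 (48.3 CPM) and miR-3068-5p (45.0 CPM) formed a middle group. The rest were miR-3102 (22.5 CPM), miR-3085 (20.2 CPM), miR-3589 (17.2 CPM), miR-3577 (14.6 CPM), miR-3559-5p (13.9 CPM), miR-3084a-3p/miR-3084b-3p/miR-3084d (12.3 CPM) and miR-6329 (10.5 CPM). The top 2 held 79.6% of the members' summed mean level, and the top 12 held 97.7%.

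All 70 together took 0.327 to 0.358% of the counts of a library. Their summed level was 3515 ± 54.3 CPM in VEH, 3294 ± 16.8 CPM in MK-801 and 3406 ± 152 CPM in MK-801+CLO (SD, n = 3). All 3 VEH libraries, at 3490, 3478 and 3578 CPM, stood above the 3 MK-801 libraries at 3275, 3302 and 3305 CPM. This order holds for CPM without the TMM factors of the tests, which were 1.03 for VEH 2 and 0.970 for MK-801 3. Divided by them, MK-801 3 would lie above VEH 2, so that these groups overlap. The MK-801+CLO libraries, at 3350, 3579 and 3291 CPM, overlapped with both. Without miR-3557-5p and miR-3586-3p the sums were 724 ± 21.8, 691 ± 39.0 and 669 ± 43.9 CPM, and all 3 groups overlapped.

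The relation to earlier miRNAs was then counted for the whole set. At least 20 bases in a row of the reverse complement of a lower-numbered hairpin or listed mature miRNA were found in 13 of the 70 (18.6%). The same search among miRNAs numbered below 3000 and let-7 found 18 of 562 (3.20%). In both searches the partner had to be numbered below 3000 or a let-7. An earlier miRNA opposite only a member was therefore not counted, which lowers the second share. The 13 held 82.0% of the members' summed mean level, and 80.6 to 83.4% in single libraries. Of them, 10 matched a RefSeq hairpin and 3 (miR-3557-5p, miR-3586-3p and miR-3589) matched a listed mature sequence. A listed partner was present for 12, and it lay wholly inside the member in 5. The sources used here do not say whether reads were counted by strand. Without strand, a read lying within the shared bases cannot be assigned to the member or to the earlier miRNA or hairpin. Shared bases are present in all 13, but they hold the whole listed partner only in those 5.

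miR-3557-5p lies in RefSeq within the span of Ppargc1b, on the opposite strand. That gene encodes the metabolic coactivator PGC-1β and is the known host of miR-378a. The level of miR-3557-5p was 1814, 1781 and 1992 CPM in VEH. It was 1706, 1620 and 1597 CPM in MK-801, and 1722, 1742 and 1573 CPM in MK-801+CLO. In CPM, all libraries of both treated groups were below all VEH libraries. Lower than VEH without overlap were 7.89% of all 469 miRNAs tested in MK-801 and 11.5% in MK-801+CLO. The tests below also scale the libraries, with TMM factors of 0.965 for MK-801+CLO 2 and 1.03 for VEH 2. Divided by them, MK-801+CLO 2 would lie above VEH 2. In edgeR the log2 fold change in MK-801+CLO against VEH was -0.09 ± 0.09, with an adjusted p of 0.675. miR-378a-3p stood at 548 ± 58.8 CPM in VEH, 526 ± 41.2 in MK-801 and 509 ± 28.6 in MK-801+CLO, and its highest library was also VEH 3, at 615 CPM. The member was 3.28 times as abundant as its partner on average, and 2.93 to 3.66 times in single libraries.

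For miR-3586-3p the order was the opposite, with the partner the more abundant. It was counted at 968, 949 and 871 CPM in the VEH libraries. The MK-801 libraries had 897, 946 and 1043 CPM. In MK-801+CLO it was at 954, 1126 and 1094 CPM. miR-151-5p averaged 3242 CPM, and the ratio of member to partner was 0.303 on average. That ratio kept to 0.297 to 0.316 in all 9 libraries, a narrower range than that of the other pairs given here. The highest libraries of miR-3586-3p, MK-801+CLO 2, MK-801+CLO 3 and MK-801 3, were also the highest of miR-151-5p.

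The other pairs had ratios from far below to far above 1. miR-3589 had 23.7 times the level of miR-505-3p (0.727 CPM), and 16.2 to 54.2 times in single libraries. miR-3553 was at 3.53 CPM beside 5.97 CPM of miR-183-5p, a miRNA of sensory cells, a ratio of 0.591. The highest library of both was MK-801 2, at 6.16 and 11.3 CPM.

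Partners far more abundant than the member were found for the hairpins of miR-338 and miR-434. miR-3065-3p was at 48.4 CPM beside 786 CPM of miR-338-5p, a ratio of 0.0616 that ran from 0.0309 to 0.134. miR-3065-5p had 3 counts in total, against a mean of 3376 CPM for miR-338-3p, an oligodendrocyte miRNA that contains its reverse complement in full. miR-3543, in the span of the imprinted gene Rtl1, was at 2.47 CPM and miR-434-3p at 40146 CPM, a ratio of 6.14e-05. A complete overlap in sequence thus came with ratios from 6.14e-05 to 23.7 among the 5 members that hold their partner whole.

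The remaining members of this kind were miR-3546 and 5 rarer ones. miR-3546, opposite the cardiac gene Myh6 and matching the Mir208a hairpin, was at 9.06 CPM, while miR-208a-5p was at 0.234 CPM. miR-3544 (Mir337) was at 0.840 CPM and miR-3074 (Mir24-1) at 0.805 CPM. miR-3120, on the strand of Dnm3, a dynamin gene of synapses, and opposite Mir214, was at 0.545 CPM. miR-3590-3p (Mir130a) and miR-3579 (Mir380) had 16 and 3 counts in all.

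**Figure D2:**
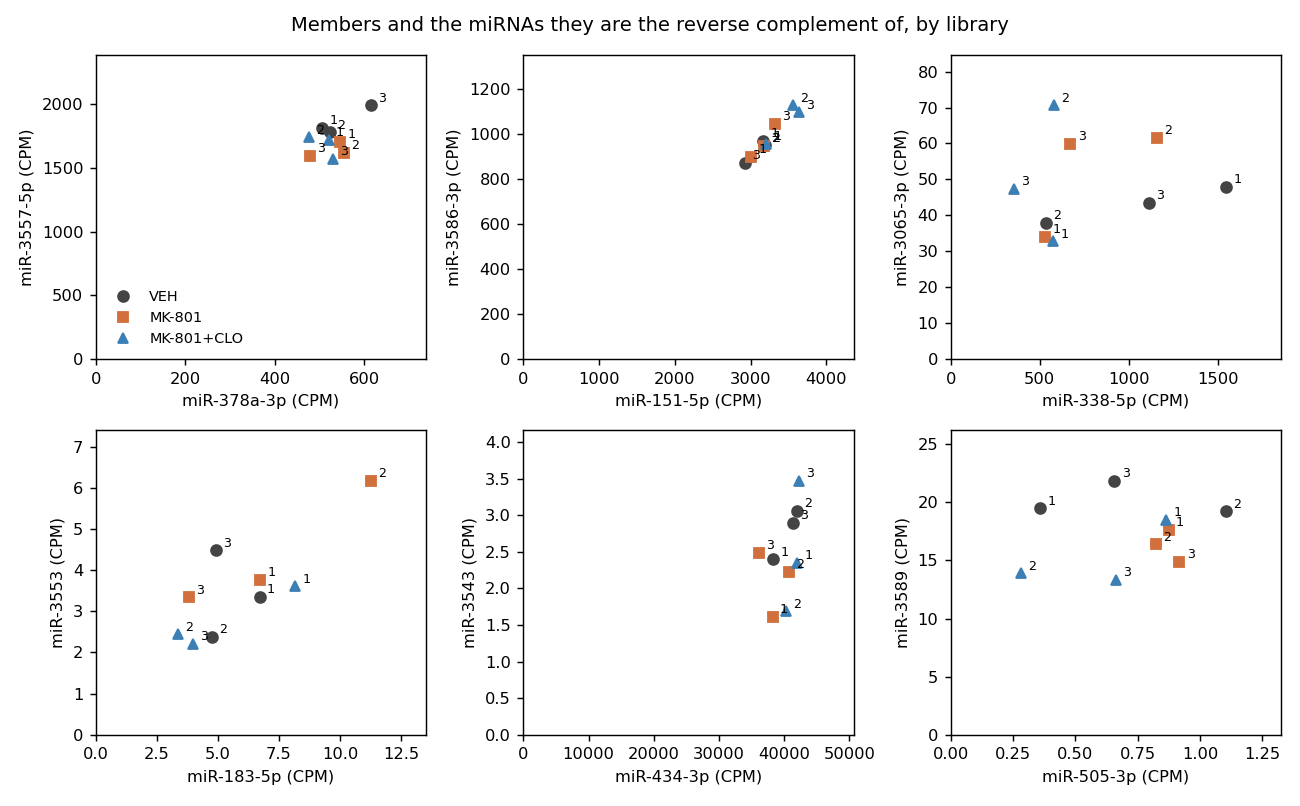
Level of 6 members (vertical axes, CPM) against the level of the earlier miRNA that each is the reverse complement of, in part or whole (horizontal axes, CPM), with 1 numbered point per library and both axes from 0. miR-3586-3p lies close to a line through the origin at a ratio of 0.297 to 0.316, while the points of miR-3589 and miR-3543 do not.

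Seeds were mostly unlike those of other listed miRNAs. The 70 carry 69 distinct seeds, and 5 members (7.14%) share theirs with any other listed miRNA, against 30.6% of the other 563. miR-3084b-5p and miR-3084c-5p share a seed with each other. miR-3065-5p has the seed of miR-7a-1-3p, miR-3568 that of miR-22-5p and miR-3573-5p that of miR-423-5p. The last 3 had 3, 1 and 0 counts in all, so each member at 1 CPM or more had a seed that no other listed miRNA carries.

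Lengths ran from 20 to 25 bases. A length of 24 or more was found for 8 members (11.4%) and for 3.91% of the others, and the median GC content was 52.2% against 47.6%. By name, 61 of the 70 were found in RefSeq (GRCr8), all with the deposited sequence. Of these 61, 49 lie inside the span of an annotated gene, 27 of them on its strand, 10 only on the opposite strand and 12 beside a gene whose strand is not in the tables used. The other 12 lie in no gene span. miR-3068 shares its RefSeq symbol with the small nucleolar RNA gene Snora58, and miR-3084d with Snora19. miR-3543, miR-3544, miR-3579 and miR-6331 lie in the imprinted Dlk1-Dio3 region, and miR-6331 was the most abundant of these 4.

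Both arms of a hairpin could be compared where at least 1 arm reached 5 CPM. The 3p arm of miR-3068, inside the demethylase gene Alkbh1, was 4.84 times as abundant as its 5p arm. That ratio was 4.15 to 5.04 in 8 libraries and 7.37 in MK-801+CLO 2. In that library miR-3068-3p was at its highest, 239.6 CPM, and miR-3068-5p at its lowest, 32.5 CPM. The 5p arm led in miR-3559, inside the palmitoyltransferase gene Zdhhc15, with a 3p to 5p ratio of 0.200 (0.135 to 0.280 by library). For miR-3065, 6321 counts fell on the 3p arm and 3 on the 5p arm. The 3p sequence shared by miR-3084a and miR-3084b was 18.6 times as abundant as miR-3084a-5p and 15.4 times as abundant as miR-3084b-5p.

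miR-6321 and miR-6324 are shown with their RefSeq hairpins (GRCr8, minus strand), the mature miRNA in capitals because one was counted in a single library and the other had the smallest p-values.
miR-6324 hairpin: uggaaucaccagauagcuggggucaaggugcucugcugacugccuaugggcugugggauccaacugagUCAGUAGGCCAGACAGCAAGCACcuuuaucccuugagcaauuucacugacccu
miR-6321 hairpin: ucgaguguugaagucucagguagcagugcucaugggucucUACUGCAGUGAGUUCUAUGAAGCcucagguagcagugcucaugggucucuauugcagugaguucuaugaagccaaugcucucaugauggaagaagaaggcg
miR-6324 lies on the strand of Brwd1, which encodes a bromodomain protein of chromatin. miR-6321 lies on the strand of Rufy3, which encodes a protein of growing axons.

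miR-6321 was counted in 1 library. MK-801+CLO 2 held 360 counts, or 33.8 CPM (95% Wilson interval 30.4 to 37.4), and the other 8 libraries held 0, which allows at most 0.164 to 0.255 CPM each. The level in that library was at least 132-fold higher than the floor of any of the 8. The group mean of 11.3 ± 19.5 CPM in MK-801+CLO therefore rests on a single library, and miR-6321 did not pass the filter on low counts. The same library was the highest of 9 for 9 of the 42 members counted everywhere (21.4%) and for 10.5% of the 457 other miRNAs counted everywhere. It was the lowest of 9 for 6 of the 42 members and for 112 of the 457 others. It also had the smallest total, and the part of depth in this was not tested.

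For the comparisons between groups, miRNAs with too few counts were left out by edgeR's filter, which used all 9 libraries. It kept 31 of the 70 members (44.3%) and 438 of the other 563 (77.8%). The lowest member kept was miR-3084a-5p, at 0.658 CPM, and the highest left out after miR-6321 was miR-3064-3p, at 0.574 CPM. The counts and medians below cover the 31 tested members and not all 70. Their biological coefficient of variation had a median of 17.5% (10.4 to 51.1%), against 14.6% over all 469 miRNAs tested. It was lowest for miR-3557-5p and highest for miR-6315.

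MK-801 was compared with VEH to ask which miRNAs differ after repeated NMDA receptor blockade. The member with the clearest difference was miR-6324. Its counts were 59, 30 and 55 in VEH, 92, 126 and 86 in MK-801, and 73, 90 and 88 in MK-801+CLO. The VEH levels were 3.53, 2.55 and 3.01 CPM, and those of MK-801 were 6.19, 7.40 and 5.64 CPM. Each of the 3 MK-801 libraries lay above each VEH library. The group means were 3.03 ± 0.493 and 6.41 ± 0.901 CPM (SD, n = 3), a log2 fold change of 1.09 ± 0.21 (SE). The unadjusted p was 0.000389, and the adjusted p of edgeR's quasi-likelihood test (Benjamini-Hochberg) was 0.182. It was 0.0261 in DESeq2 and 0.240 in limma voom, and it ran from 0.165 to 0.897 in edgeR when a library was left out.

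At an adjusted p of 0.05, edgeR and limma voom called 0 of the 31 members in this comparison, and 0% of all 469 miRNAs. DESeq2 called 1 member, miR-6324, with 0.213% of all 469 called, so that miR-6324 was its only call. At an unadjusted p under 0.05, edgeR found 2 of 31 members, against 5.12% of all tested. One was higher, miR-6324 (2.99% of all tested were higher), and 1 was lower, miR-3072 (2.13% of all tested were lower). A share of 2 in 31 is near that background.

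miR-3072 was at 9.17, 9.52 and 9.79 CPM in VEH and at 6.93, 6.93 and 6.23 CPM in MK-801, with no overlap. Its log2 fold change was -0.48 ± 0.15, with an unadjusted p of 0.011 and an adjusted p of 0.588 in edgeR. The next members by p were miR-3589 (-0.29 ± 0.14), miR-3557-5p (-0.16 ± 0.09), miR-3594-3p (-0.63 ± 0.36) and miR-3085 (-0.40 ± 0.23), each with an edgeR adjusted p of 0.814. For miR-3589 the libraries were at 19.5, 19.2 and 21.8 CPM in VEH and at 17.6, 16.4 and 14.9 CPM in MK-801. The groups of miR-3594-3p and miR-3085 overlapped.

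Without overlap between groups, 2 members were higher in MK-801 (miR-6324 and miR-6329), against 5.97% of all tested. Lower without overlap were 5 members (miR-3072, miR-3084a-5p, miR-3102, miR-3557-5p and miR-3589), against 7.89% of all tested. The median log2 fold change was -0.12 over the 31 members and -0.02 over all 469, and 12 of 31 members were above 0, against 46.5% of all tested. The members' median moved when a library was left out and the filter rerun, which also changed the members tested. Without VEH 2 it was 0.005 over 35 members, with 18 of 35 above 0, and the median of all 477 tested was 0.006. Without MK-801 1 it was -0.03 over 33 members, and -0.01 over all 473 tested. miR-3102 was at 24.4, 24.7 and 25.5 CPM in VEH and at 21.0, 19.0 and 22.8 CPM in MK-801.

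**Figure D3:**
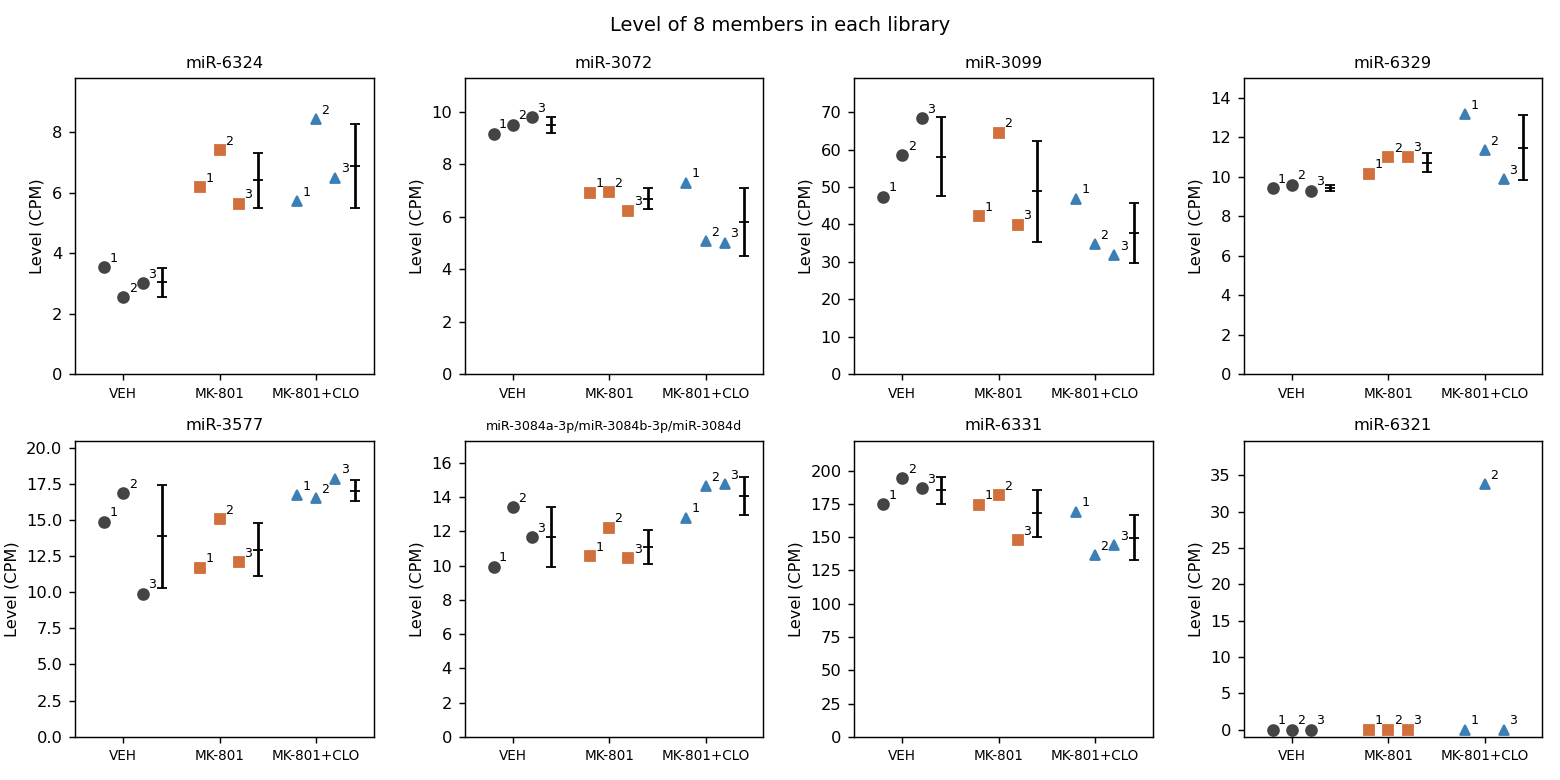
Level (CPM) of 8 members in each library, with the library's replicate number beside its point. Black marks are group means and SD (n = 3), left out for miR-6321, whose 360 counts fell in 1 library; its axis starts just below 0. All treated libraries of miR-6324 lie above VEH, and those of miR-3072 lie below it.

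MK-801+CLO against MK-801 asked what differs when CLO follows MK-801. miR-6324 did not show a difference here, at 5.73, 8.44 and 6.49 CPM in MK-801+CLO, which overlapped with MK-801. Its log2 fold change was 0.14 ± 0.20, with an edgeR adjusted p of 0.825, and it was -0.033 without MK-801+CLO 2. edgeR and limma voom called 0 of 31 members and 0% of all 469, and DESeq2 called 0 members and 0.426% of all 469.

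At an unadjusted p under 0.05, edgeR found 3 of 31 members, against 8.32% of all tested, all of them higher in MK-801+CLO. For the higher direction the background was 4.69% and for the lower one, with 0 members, it was 3.62%. The same 3 were the members that were higher without overlap, against 4.69% of all tested. Lower without overlap were 0 members, against 6.82% of all tested.

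The first was miR-3084a-3p/miR-3084b-3p/miR-3084d, at 10.6, 12.2 and 10.4 CPM in MK-801 and at 12.8, 14.6 and 14.8 CPM in MK-801+CLO. The log2 fold change was 0.39 ± 0.14, with an edgeR adjusted p of 0.526. miR-3577 was at 11.7, 15.0 and 12.1 CPM and then at 16.7, 16.5 and 17.9 CPM, a log2 fold change of 0.44 ± 0.18 with an edgeR adjusted p of 0.528. In VEH miR-3577 spread more widely, from 9.90 to 16.8 CPM, and overlapped with both. miR-3594-3p, inside the centrosome gene Cep131, was at 0.740, 0.881 and 1.57 CPM and then at 1.65, 1.69 and 2.66 CPM. Its log2 fold change of 0.95 ± 0.36 had an edgeR adjusted p of 0.526, and rests on 204 counts over all 9 libraries.

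The other members named by p in this comparison were lower in MK-801+CLO, and their groups overlapped. They were miR-3553 (-0.64 ± 0.31), miR-3547 (-1.15 ± 0.60) and miR-3099 (-0.33 ± 0.20), with edgeR adjusted p from 0.589 to 0.680. In all 3 the MK-801 group had 1 high library, MK-801 2, at 6.16, 3.17 and 64.5 CPM. The other 2 MK-801 libraries were at 3.77 and 3.34 CPM, at 0.941 and 0.852 CPM, and at 42.2 and 40.0 CPM. Without MK-801 2 the log2 fold changes were -0.37, -0.31 and -0.12. VEH 3 was the highest VEH library of miR-3553 and miR-3099. The members' median log2 fold change was 0.07, against -0.004 over all 469, and 19 of 31 were above 0, against 48.8% of all tested. With upper-quartile scaling, which moved the median of all 469 to -0.12, the members' median was -0.04 and 14 of 31 were above 0. With the usual TMM scaling it was -0.009 over 35 members without MK-801 2 and -0.02 over 34 members without MK-801+CLO 2.

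MK-801+CLO against VEH compares rats given both agents in turn with saline, and shares its VEH libraries with the first comparison. The level of miR-6324 in MK-801+CLO was 6.89 ± 1.40 CPM, beside 3.03 ± 0.493 CPM in VEH, again without overlap. The log2 fold change was 1.23 ± 0.21, with an unadjusted p of 0.000161 and an adjusted p of 0.0755 in edgeR's quasi-likelihood test. It was 0.00201 in DESeq2 and 0.134 in limma voom, and it ran from 0.0574 to 0.418 in edgeR when a library was left out. The lowest treated library over both groups, MK-801 3 with 86 counts, had a 95% Wilson interval with a lower limit of 4.564 CPM. The highest VEH library, VEH 1 with 59 counts, had one with an upper limit of 4.559 CPM, so that the 2 intervals barely missed each other. For MK-801+CLO 1, with 73 counts, the lower limit was 4.555 CPM, so its interval overlapped with that of VEH 1. These intervals hold counting error alone and not the spread between libraries.

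In this comparison edgeR and limma voom called 0 members, and 0% of all 469, at an adjusted p of 0.05. DESeq2 called 1 of 31 members, miR-6324, against 0.64% of all 469. At an unadjusted p under 0.05, edgeR found 7 of 31 members, against 14.9% of all tested. Of these, 3 were higher and 4 lower, and 7.46% of all tested were higher and 7.46% lower. Without overlap, 2 members were higher (miR-6324 and miR-6329), against 5.97% of all tested, and 6 were lower, against 11.5%. The 6 were miR-3072, miR-3099, miR-3547, miR-3557-5p, miR-3589 and miR-6331.

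miR-3072 was at 7.30, 5.06 and 5.02 CPM in MK-801+CLO, below all VEH libraries, with a log2 fold change of -0.65 ± 0.16 and an edgeR adjusted p of 0.174. miR-3099, known from the developing mouse nervous system, was at 47.4, 58.5 and 68.4 CPM in VEH and at 46.8, 34.8 and 31.7 CPM in MK-801+CLO. VEH 1 and MK-801+CLO 1 of this miRNA were nearly equal. The 3 miRNAs listed as markers of ciliated ependyma (miR-34b-5p, miR-34c-5p and miR-449a-5p) were above 0 in every library. Their summed level was 1069 to 1834 CPM in VEH, 906 to 1482 CPM in MK-801 and 483 to 1082 CPM in MK-801+CLO. The highest VEH and MK-801 libraries of that sum, VEH 3 and MK-801 2, were also the highest of miR-3099. In MK-801+CLO the sum was highest in MK-801+CLO 2 (1082 CPM) and miR-3099 in MK-801+CLO 1 (46.8 CPM). The lowest libraries of both were MK-801 3 and MK-801+CLO 3, but in VEH they were VEH 2 for the sum and VEH 1 for miR-3099. The part of ependyma in the level of miR-3099 was not tested. Its log2 fold change was -0.56 ± 0.20, with an edgeR adjusted p of 0.251.

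miR-6329, opposite the membrane-cytoskeleton linker gene Rdx, had one of the steadiest levels. It was at 9.41, 9.60 and 9.30 CPM in VEH and at 10.2, 11.0 and 11.0 CPM in MK-801. In MK-801+CLO it was at 13.2, 11.3 and 9.89 CPM. All treated libraries were above all VEH libraries, and its log2 fold change against VEH was 0.34 ± 0.13 with an edgeR adjusted p of 0.254.

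The MK-801+CLO libraries of miR-3589 were at 18.5, 13.9 and 13.4 CPM, below the VEH libraries. The log2 fold change was -0.35 ± 0.14, with an edgeR adjusted p of 0.260. miR-3084a-3p/miR-3084b-3p/miR-3084d was at 9.95, 13.4 and 11.6 CPM in VEH and overlapped with MK-801+CLO, at 0.34 ± 0.14 and an edgeR adjusted p of 0.288. miR-6331, the fourth most abundant member, was at 175, 194 and 187 CPM in VEH and at 169, 136 and 144 CPM in MK-801+CLO. Its log2 fold change was -0.25 ± 0.11, with an edgeR adjusted p of 0.307, and its MK-801 libraries, at 174, 181 and 148 CPM, overlapped with both.

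The members' median log2 fold change against VEH was -0.09 in MK-801+CLO and that of all 469 was 0.003. Above 0 were 13 of 31 members, against 50.1% of all tested. Without MK-801+CLO 1 the members' median was 0.001 over 34 members, and without MK-801+CLO 3 it was -0.01 over 35 members. Among the abundant members, miR-3068-3p had group means close to each other, at 220 ± 8.95, 218 ± 3.92 and 215 ± 22.1 CPM in VEH, MK-801 and MK-801+CLO. The widest spread among tested members was that of miR-6315, inside the vesicle tethering gene Vps51. It ran from 1.61 to 8.34 CPM, with its highest library, MK-801+CLO 3, at 8.34 CPM and the other 2 of that group at 2.43 CPM or less.

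**Figure D4:**
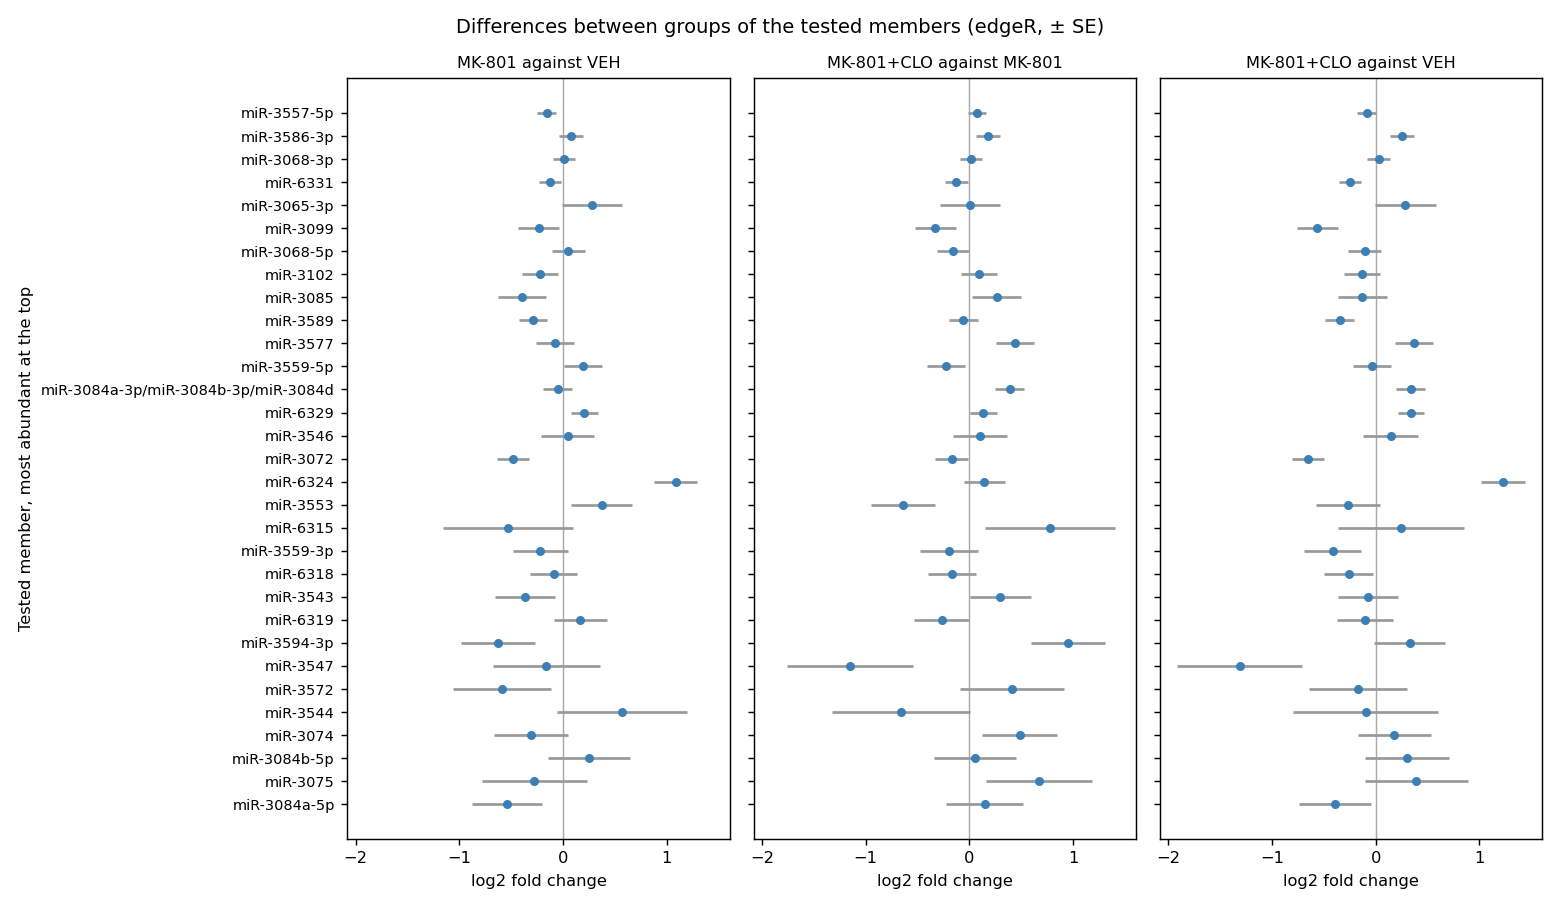
Log2 fold change (points) and SE (bars) from edgeR of the 31 tested members in the 3 comparisons, ordered from the most abundant (top) to the least. The fold change of miR-6324 is above 1 in both comparisons with VEH, and the bars lengthen towards the rarer members at the foot.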

How the data were processed

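Mature miRNAs had been counted in 9 small RNA libraries of rat hippocampus. The authors deposited 1 table with counts per library and values headed TPM. The deposited TPM equals the count scaled to CPM within 0.000473%, with no length term, so levels were computed from the counts. The third kind of column used is the deposited miRNA length in bases, an other unit. The tools that the submitters' processing notes list are cutadapt 1.14, Bowtie and DESeq, with the build Rnor_6.0 and no roles. The alignment settings, the use of strand in counting and the handling of reads matching several miRNAs are not given in the sources used here. In the table, 21 blank lines were dropped and 1 split name was rejoined.

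Tests used edgeR 4.0.16 in R 4.3.3: filterByExpr (469 miRNAs, 99.997% of counts), TMM factors, glmQLFit and glmQLFTest over all 9 libraries with 1 mean per group, Benjamini-Hochberg adjustment over all 469, threshold 0.05. SE is the absolute log2 fold change over the root of F. Overlap between groups was read from CPM without the TMM factors. The code was tested on simulated counts. Alternatives were DESeq2 1.42.0, limma voom (limma 3.58.1), other scalings and filters, robust dispersion, fewer libraries and the replicate number as a block. Wilson intervals (95%) came from SciPy 1.17.1. No pair of libraries of the same group agreed within sampling noise. Sequences come from the deposited table and RefSeq (GRCr8); coordinates are not given, since the builds differ.

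The members and lists were chosen with earlier results of these data known. Named were miR-6324, the 12 most abundant, per comparison any past the threshold and the 6 with the smallest p, those at 0 or counted in at most 2 libraries, those at the filter's edge, arm pairs reaching 5 CPM, and antisense or seed-sharing members. Others were chosen after their values were seen.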

Additional observations from a re-analysis of the deposited data

How the results depend on the processing

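edgeR called 0 members in each comparison under every setting run; DESeq2 called 1, miR-6324, in MK-801 against VEH and 1, miR-6324, in MK-801+CLO against VEH. Leaving out any library left 0 members called in edgeR. Over all miRNAs tested, edgeR called 7 of 476 in MK-801+CLO against VEH and 2 of 476 in MK-801+CLO against MK-801 without MK-801+CLO 2. Without MK-801 2 it called 1 of 473 in MK-801 against VEH. The replicate numbers did not pair the libraries (correlations of same-numbered libraries from -0.345 to 0.129), and with a block for the replicate number 0 members were called and the adjusted p of miR-6324 was 0.697 against VEH in MK-801 and 0.280 in MK-801+CLO. Members at an unadjusted p under 0.05 numbered 0 to 4 in MK-801 against VEH, 0 to 7 in MK-801+CLO against MK-801 and 2 to 11 in MK-801+CLO against VEH over all settings, the last falling from 7 to 2 without VEH 3 and to 3 without MK-801+CLO 3. Of 19 log2 fold changes followed, 18 kept their sign in every setting, and that of miR-6324 in MK-801+CLO against MK-801 ran from -0.033 (without MK-801+CLO 2) to 0.28 (without MK-801+CLO 1) with a library left out. The number of members counted in all 9 libraries was 24 at a minimum of 10 counts, against 42 at 1 count and 35 at 3 counts, and 42 to 44 with a library left out. The median level was 0.998 CPM when the 5 most abundant miRNAs were left out of the library totals, against 0.497 CPM, and 0.422 to 0.518 CPM with a library left out, lowest without MK-801+CLO 2. Depth limits the 44 members under 1 CPM most.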
